A study of Mus musculus with 51 samples.

Results

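The cytosolic ribosomal protein genes were followed in macrophages of the lung's airspaces over 15 groups of arrays. The members were the probe sets whose single symbol in the platform annotation began with Rpl or Rps and a digit, or was Rplp0, Rplp2 or Rpsa. The S6 kinases and pseudogenes were left out. This gave 100 probe sets of 48 genes, 26 of the large and 22 of the small ribosomal subunit, among 22626 probe sets and 12393 genes with 1 symbol. Each gene was read from the probe set with the highest mean log2 signal over the 51 arrays, and none was removed by a filter on low signal. A further 102 probe sets carried a symbol of the family beside other symbols and are described only as a group.

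The arrays came from C57Bl/6 mice, here WT, and from gp91phox-/- mice, here KO, whose phagocytes have no working NADPH oxidase. The groups were untreated at 0 h, and mock, e6 conidia or e7 conidia of Aspergillus fumigatus at 2 h and at 4 h, with 4 WT and 3 KO arrays each. Polystyrene beads at 4 h were given to WT mice only, with 2 arrays. The stated question was whether macrophages of a normal and an immune-compromised host respond differently to this mould. The labels write the doses only as e6 and e7, call the replicates biological, and do not say how many mice were pooled for an array, so p-values measure the spread between these arrays. The KO label names a whole-animal deletion and not a macrophage-restricted one. For mock at 4 h in WT, title and treatment field disagree (mock against conidia), and the grouping follows the title.

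The cytosolic ribosome reads messenger RNA and builds the cell's proteins, and its small and large subunits each carry a fixed set of ribosomal proteins around a core of ribosomal RNA. The genes of these proteins are transcribed strongly in nearly all cells. Their messengers typically begin with a C followed by a run of pyrimidines, through which the mTOR pathway and LARP1 adjust their translation and stability. In macrophages, microbial stimuli are known to reset mTOR signalling and protein synthesis.

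Cybb, the gene disrupted in KO mice, lay between 10.59 and 12.12 on the log2 scale in WT and between 6.77 and 9.06 in KO (log2 difference -2.75 ± 0.11 SE, limma adjusted p = 9.66e-22). The 10 measured alveolar macrophage markers were bright, with a median over arrays from 11.77 for Fabp4 to 14.08 for Lpl. Arrays of a group correlated with r from 0.899 to 0.949 over 64 pairs. Array 4 of WT 4 h e7 conidia stood apart from the other arrays of its group. Neutrophil markers were highest on array 3 of WT 4 h mock (mean log2 9.09), array 4 of WT 4 h e6 (8.08) and array 3 of WT 4 h e7 (7.78). The 3'/5' log2 signal ratio of the control transcripts, a measure of how far RNA or its labelled copy is shortened, ranged from 0.92 in KO 2 h mock to 5.32 in WT 4 h beads. Fewer cells of a type and less RNA per cell cannot be told apart in these bulk samples.

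Across all conditions the members varied little. The median SD over the 51 arrays was 0.29 on the log2 scale, against 0.52 for all 12393 genes and 0.27 for the 2301 genes with a mean log2 signal of at least 10. The steadiest members were Rpl13a, Rps2, Rps29 and Rps7, each with an SD of 0.16, and Rpl6 with 0.17. Rpl13a is also known for a role outside the ribosome, in silencing inflammatory messengers. The most variable were Rpl3l (SD 1.32), Rpl41 (1.01), Rpl39l (0.73), Rps15 (0.69) and Rps4l (0.67). Rpl3l, the muscle form of RPL3, had a mean log2 signal of 3.3, so its spread was that of a dim probe set.

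KO 2 h e7 held the lowest group mean of 17 members and WT 4 h e7 that of 11, while WT 2 h mock held the highest of 18. To follow the family on each array, every member was set against its own mean over the 51 arrays and the median of the 48 deviations was taken. In KO this median was 0.14, 0.19 and 0.15 after 2 h mock, and -0.35, -0.27 and -0.3 after 2 h e7 conidia. It was 0.13, 0.09 and 0.02 after 4 h mock and -0.11, -0.11 and -0.14 after 4 h e7 conidia. At both times in KO the e7 arrays lay below all mock arrays on the deposited scale. In WT it was 0.22, 0.31, 0.33 and -0.02 after 2 h mock, and -0.07, -0.1, -0.09 and -0.28 after 2 h e7 conidia. It was 0.15, 0.28, 0.08 and -0.14 after 4 h mock, and -0.19, -0.35, -0.51 and 0.12 after 4 h e7 conidia. The WT e7 arrays lay below the mock arrays at 2 h, but at 4 h array 4 of the e7 group was as high as the mock arrays. In untreated mice the median was -0.08, -0.02, -0.03 and 0 in WT and 0.07, 0.14 and -0.06 in KO. E7 conidia were compared with mock, and with beads in WT at 4 h, but not with untreated mice. After quantile normalization, which gives all arrays one distribution, the KO 2 h arrays kept apart (-0.25 to -0.17 against 0.07 to 0.11). The KO 4 h e7 arrays then overlapped with mock (-0.06 to 0.01 against -0.03 to 0.07).

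**Figure D1:**
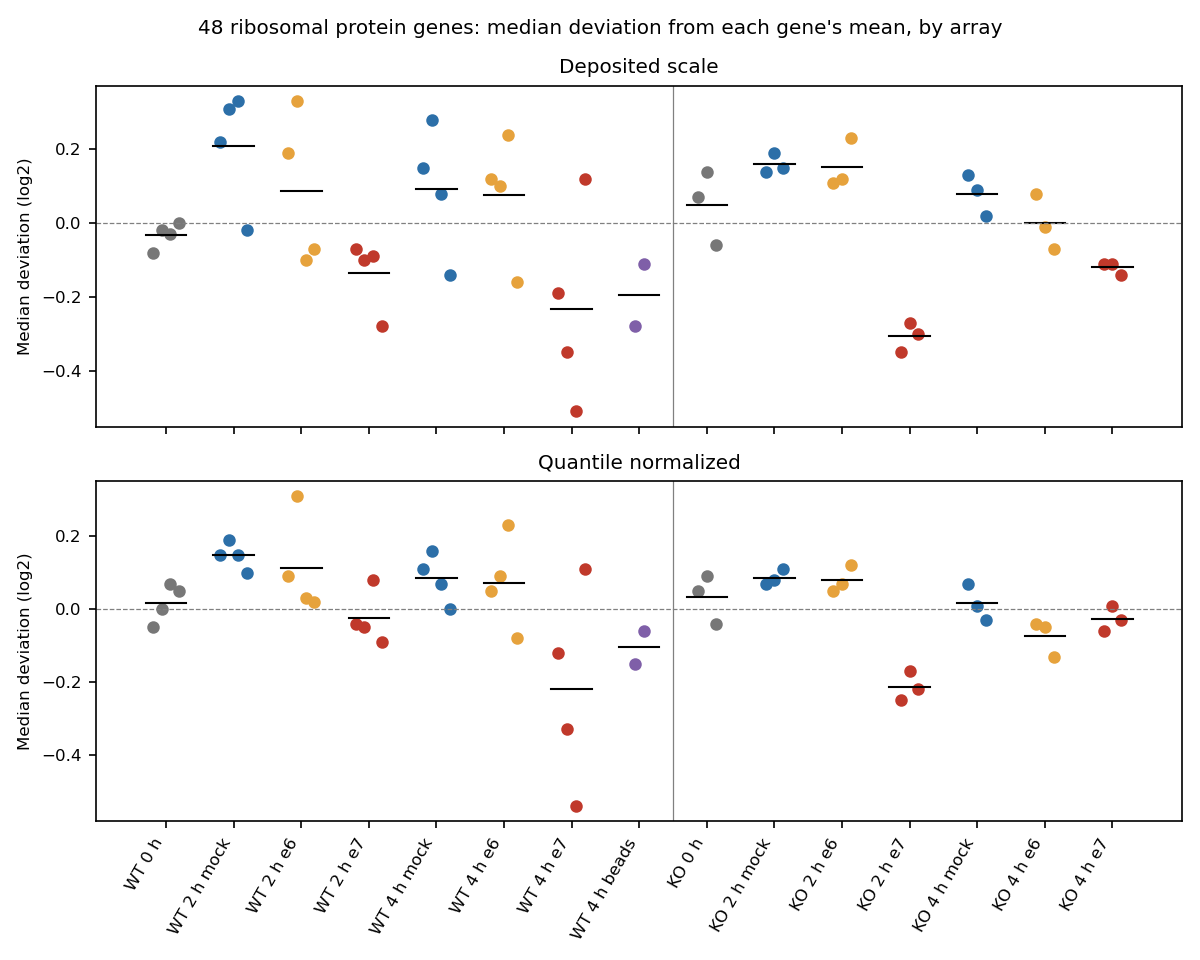
Median deviation of the 48 members from their own means (log2), 1 point per array and a bar at the group mean, for WT on the left and KO on the right, on the deposited scale (top) and after quantile normalization (bottom). The KO 2 h e7 arrays sit between -0.35 and -0.27 on the deposited scale, and array 4 of WT 4 h e7 sits at 0.12.

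The start sites of the members were read from RefSeq promoter sequences of build GRCm38.p6, which held 42 of the 48 genes. The build behind the array was not stated, and these sequences were matched by symbol. A C at the annotated start that opens a run of at least 5 pyrimidines stood in 8 of the 42 members (19%) and in 813 of 27025 genes in all (3.01%). This count requires the annotated start to be exact to the base. A run of at least 8 pyrimidines within 25 bases of the start stood in 23 of the 42 members (54.8%), against 22.3% of all genes. The motif CCGGAAG, the core bound by ETS factors, was found on either strand in 50% of the members, against 9.93% of all genes. A gene counted if any of its windows, of 250 bases before to 50 after a start, held the motif. The motif ATGGCGG, a YY1 core, was in 16.7% against 4.69%. TATAAA was in 14.3% of members against 15.7% of all genes. Of the 25 matched members called in some e7 comparison below, 5 had the start tract, and of the 17 others 3 had it. The starts of these 5 are shown as examples of the tract in members that were called. Capitals mark it, from the annotated start, with 30 bases before that start and 20 from it:
Rpl35, chr2:39005112-39005161, minus strand: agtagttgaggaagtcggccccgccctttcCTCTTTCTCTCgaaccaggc
Rps10, chr17:27635225-27635274, minus strand: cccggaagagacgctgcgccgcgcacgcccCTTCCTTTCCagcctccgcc
Rps18, chr17:33955646-33955695, minus strand: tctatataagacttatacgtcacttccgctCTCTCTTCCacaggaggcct
Rpl38, chr11:114668550-114668599, plus strand: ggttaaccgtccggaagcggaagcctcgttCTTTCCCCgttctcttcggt
Rplp2, chr7:141447621-141447670, plus strand: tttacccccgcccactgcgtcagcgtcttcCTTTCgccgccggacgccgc
Run lengths were 11, 10, 9, 8 and 5 bases in this order. A match is a string in a window and not evidence of binding or of translational control.

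In WT mice at 2 h, 5 of the 48 members were called lower after e7 conidia than after mock and none higher. They were Rpl22, Rps19, Rplp2, Rpl6 and Rps3a1. The background was 0.769% of all probe sets called lower. It was higher among bright probe sets outside the family, 2.76% at a mean log2 of 12 to 13 and 4.56% at 13 and above, where 2 of 15 and 3 of 26 member probe sets were called lower. The median member difference was -0.34, against -0.04 for all probe sets, and 43 members were below 0. After quantile normalization the medians were -0.16 and 0.01, and 3 members were called, with 0.924% of all probe sets called lower. A probe set was called at a limma Benjamini-Hochberg adjusted p under 0.05. In 16 members all 4 e7 arrays lay below all 4 mock arrays, and 6% of all probe sets did so.

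Rpl22 encodes an RNA-binding large-subunit protein that the ribosome can do without. Its log2 signal was 12.75, 12.94, 12.85 and 12.72 after mock and 12.13, 12, 11.63 and 12.11 after e7 conidia. The groups did not overlap, and the difference was -0.85 ± 0.20 SE (adjusted p = 0.019, 1.8-fold lower). Its other probe set, with a mean log2 of 9.66, read 0.23 ± 0.15, and with the mean of both the difference was -0.31 and was not called. The paralog Rpl22l1, whose protein can replace RPL22, read 0.06 ± 0.18 in the same comparison and was not called. Rps19, a small-subunit protein needed for maturation of 18S ribosomal RNA and the gene most often mutated in Diamond-Blackfan anaemia, was 12.11, 12.36, 12.16 and 12.22 after mock. After e7 conidia it was 11.06, 11.59, 11.61 and 11.18, again without overlap (-0.85 ± 0.17, adjusted p = 0.00794). Untreated WT arrays were 12.34, 12.55, 12.67 and 12.23 for Rpl22 and 11.55, 11.57, 11.54 and 11.48 for Rps19. Rplp2, an acidic protein of the stalk that recruits elongation factors, fell by 0.59 on the log2 scale. Rpl6 fell by 0.50 and Rps3a1 by 0.43. The largest difference of all, in Rpl41, which encodes a very short basic peptide, missed the threshold: it read 13.38, 13.84, 13.91 and 13.3 after mock and 10.55, 11.96, 12.72 and 11.41 after e7 conidia (-1.94 ± 0.54, adjusted p = 0.0522).

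The count of 5 moved with single arrays: it was 2 without e7 array 1, 3 without e7 array 4, 3, 0 and 1 without mock arrays 1, 2 and 3, and 12 without mock array 4. The 3'/5' control ratio also differed without overlap, 2.09 to 4.85 after e7 conidia against 0.93 to 1.47 after mock (exact two-sided permutation p = 0.0286, the smallest possible, and 0.214 adjusted over 15 comparisons). No member was called with this ratio as a covariate, or when only the 8 arrays of these groups set the spread. Mean alveolar macrophage markers were 12.73 to 12.8 against 12.9 to 13.16, and 1 of the 10, Cd9, was called lower. The part of cell mixture in the result was not tested.

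KO macrophages at the same time and dose had 13 of 48 members called lower and none higher. The background was 2.54% of all probe sets called lower. Outside the family it was 8.64% at a mean log2 of 12 to 13 and 10.6% at 13 and above, where 9 of 15 and 8 of 26 member probe sets were called lower. The median member difference was -0.40 while all probe sets had a median of 0.26. With quantile normalization the 2 medians were -0.30 and 0.01, and 8 members were called. All 3 e7 arrays lay below all 3 mock arrays in 38 members, against 11.4% of all probe sets. Over all probe sets the calls were 575 lower and 1382 higher on the deposited scale and 933 lower and 640 higher after quantile normalization.

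Rps26 encodes a small-subunit protein at the exit of the messenger channel. It was 12.83, 12.89 and 12.99 after mock and 12, 12.05 and 12.01 after e7 conidia. The arrays of each group were tight and far apart (-0.88 ± 0.18, adjusted p = 0.00234, 1.84-fold lower). Rpl37, a large-subunit zinc-finger protein, was 9.22, 9.79 and 9.95 after mock and 7.58, 7.46 and 7.94 after e7 conidia (-2.00 ± 0.41, adjusted p = 0.003, 3.99-fold lower). Both were called under all 14 alternatives tried for this comparison. Each has 1 member probe set, so the mean of probe sets could not change its value. For both, KO 2 h mock had the highest mean of the 15 groups. Untreated KO arrays read 12.4, 12.61 and 12.6 for Rps26 and 8.1, 8.49 and 7.98 for Rpl37. The mean log2 of Rpl37 was 8.43, against a family median of 12.71. Rpl41 was 13.5, 13.65 and 13.56 after mock and 11.52, 11.52 and 11.14 after e7 conidia (-2.18 ± 0.62, adjusted p = 0.0254, 4.52-fold lower). Its other probe sets read -1, 0.01 and 0.30, the mean of all 4 gave -0.72, and the call was lost with that mean and without any 1 of the 6 arrays. Rps24 fell by 0.85 and Rpl35, a protein at the exit of the nascent chain, by 0.72, and neither was called with the mean of its probe sets. The other bright probe sets of Rpl35 read -0.61, -0.68, -0.83 and -0.84. A dim further probe set, with a mean log2 of 5.71, read 1.12 ± 0.43. Rpsa, known also as the laminin receptor, fell by 0.57 in its brighter probe set. Its other probe set was dim, with a mean log2 of 3.29, and read 0.75 ± 0.86 (adjusted p = 0.608).

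The count was 4 to 8 when any 1 of the 6 arrays was left out: 4, 8 and 4 without e7 arrays 1, 2 and 3, and 6, 4 and 4 without the mock arrays. It was 6 when only these arrays set the spread. The 3'/5' ratio was 1.45 to 3 after e7 conidia and 0.92 to 1.22 after mock (exact two-sided permutation p = 0.1, the smallest that 3 against 3 allows). With it as a covariate the count stayed within 1.5 times. Mean alveolar macrophage markers were 12.98 to 13.01 against 13.18 to 13.3, and neutrophil markers 5.58 to 6.74 against 6.2 to 6.49. Monocyte and dendritic cell markers were 5.71 to 5.96 against 4.35 to 5.55, without overlap. Probe sets outside the family with a mean log2 under 8 had a median difference of 0.52 in this comparison. The part of this rise of dim probe sets in the marker means was not tested. Of 8 neutrophil markers Camp was called higher (2.63), and of 7 T and NK cell markers Cd4 (4.11) and Cd8a (3.20) were called higher and Lat (-2.52) lower. The part of cell mixture was not tested. The KO minus WT difference of the 2 h response was called in 0 members by limma (1.45% of all probe sets called). At an unadjusted p under 0.05, 5 members were below and 1 above 0, against 3.4% and 12.5% of all probe sets. The nearest was Rps26 at -0.81 ± 0.23 (adjusted p = 0.0637). In WT at 2 h Rps26 was 12.66, 12.56, 12.56 and 12.4 after mock and 12.54, 12.69, 12.43 and 12.24 after e7 conidia, with overlap.

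**Figure D2:**
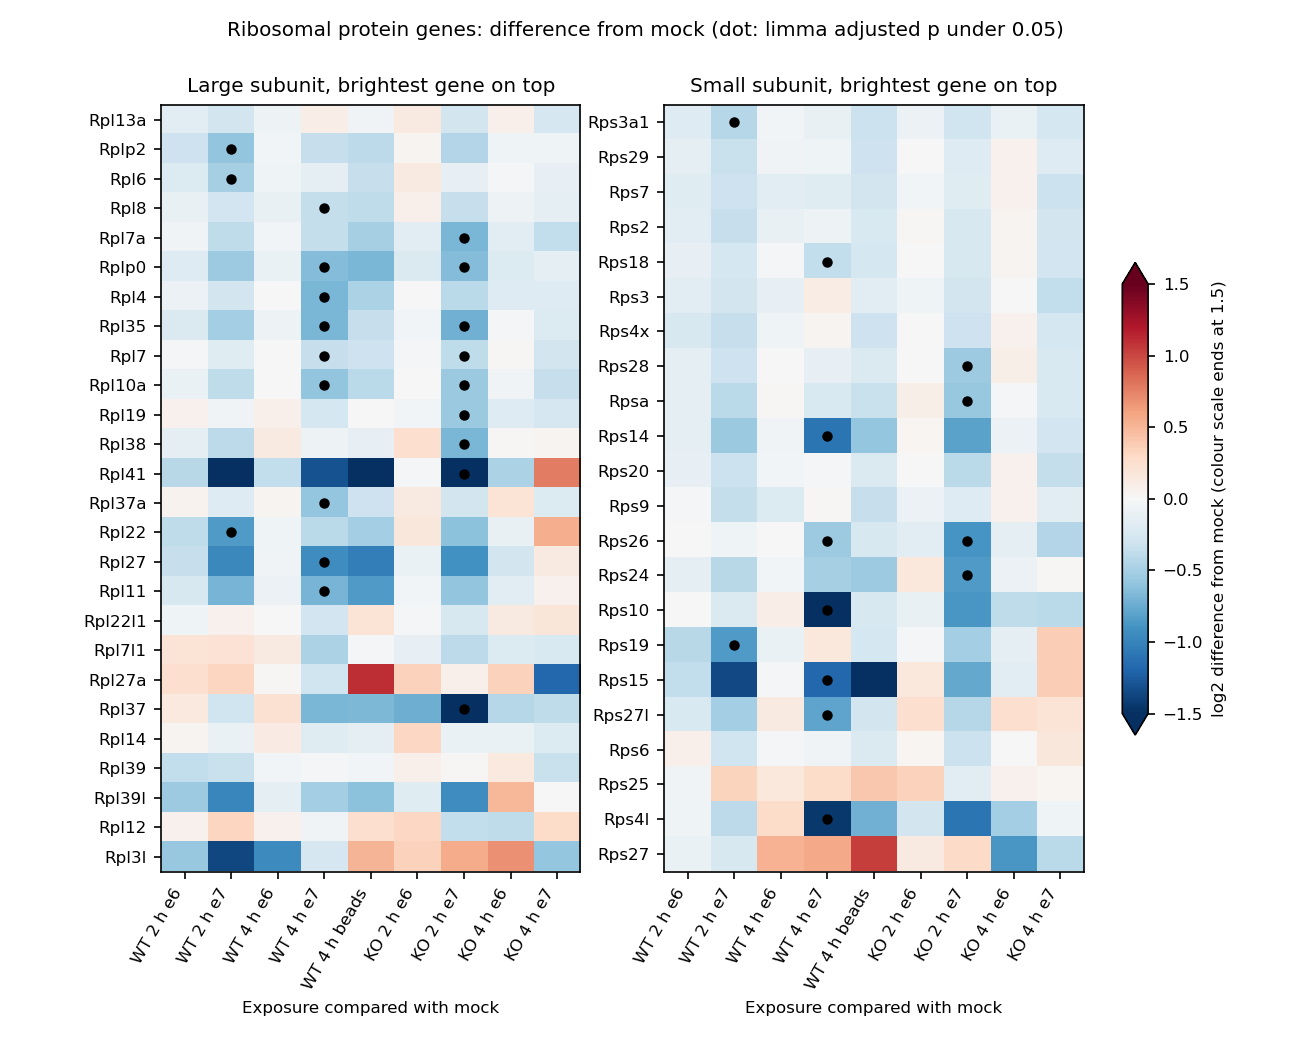
Log2 difference from mock of the 26 large-subunit (left) and 22 small-subunit genes (right) in 8 conidia comparisons and beads, blue for lower and red for higher, with a dot where the limma adjusted p was under 0.05. The dots lie in 3 columns, WT 2 h e7, WT 4 h e7 and KO 2 h e7, on blue cells.

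At 4 h in WT mice, 16 of 48 members were called lower after e7 conidia than after mock and none higher. The background was 9.68% of all probe sets called lower. Outside the family it was 19.3% at a mean log2 of 10 to 12, 21% at 12 to 13 and 11.4% at 13 and above, where 11 of 22, 8 of 15 and 8 of 26 member probe sets were called lower. A further 3 member probe sets that do not stand for their genes, with mean log2 of 5.71 to 7.64, were called higher, in Rpl35 (1.09), Rps24 (0.82) and Rps9 (0.79). The median member difference was -0.32, against -0.07 for all probe sets. After quantile normalization 18 members were called, with 7.35% of all probe sets called lower. Large and small subunits had 9 of 26 and 7 of 22 members called. No member had all 4 e7 arrays below all mock arrays, against 5.56% of all probe sets, with array 4 of the e7 group lying among the mock arrays.

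Rps10, a small-subunit protein of the head, was 12.09, 12.2, 12.09 and 12.06 after mock and 10.85, 9.63, 9.54 and 12.17 after e7 conidia. The first 3 of the 4 e7 arrays were below every mock array (-1.56 ± 0.31, adjusted p = 0.000625, 2.95-fold lower). Rps14, a protein of the platform and the gene of the 5q- syndrome, was 13.72, 13.85, 13.69 and 13.38 after mock and 13.03, 12.22, 11.4 and 13.57 after e7 conidia (-1.10 ± 0.23, adjusted p = 0.00112). Rps4l, an autosomal relative of Rps4x, fell by 1.45 (adjusted p = 0.00469), Rps15 by 1.18 and Rpl27 by 0.93. Rps4x itself was not called. Rpl11, which with 5S ribosomal RNA binds MDM2 and links ribosome assembly to p53, fell by 0.70 ± 0.20 (adjusted p = 0.015). Rplp0, the stalk base, was 13.56, 13.64, 13.47 and 13.03 after mock and 12.83, 12.68, 12.25 and 13.36 after e7 conidia (-0.65 ± 0.17, adjusted p = 0.00828).

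The count at 4 h depended on arrays. It was 9 without e7 array 2, 5 without e7 array 3, 22 without e7 array 4, and 10 without mock array 2. It was 0 without e7 arrays 2 and 3 together, and 0 when only the arrays of both groups set the spread. Leaving out the 3 arrays named above for their neutrophil markers gave 5. Neutrophil markers were 5.27 to 7.78 after e7 conidia and 5.03 to 9.09 after mock, and alveolar macrophage markers 12.7 to 12.92 against 12.94 to 13.09. Siglecf and Car4 of 10 alveolar macrophage markers and Mmp8 of 8 neutrophil markers were called lower, and Epcam of 7 lung epithelium markers higher. The part of cell mixture was not tested beyond these counts.

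In KO mice at 4 h no member was called by limma (0.00442% of all probe sets called). At an unadjusted p under 0.05, 12 members were below and 1 above 0, against 4.23% and 2.78% of all probe sets. The groups did not overlap in 23 members below mock and 4 above, against 9.05% and 7.21%. The median member difference was -0.20, and -0.03 after quantile normalization. The largest difference was Rpl27a at -1.18 ± 0.42 (adjusted p = 0.492). Rps19 was 11.96, 11.93 and 11.7 after mock and 12.03, 12.36 and 12.32 after e7 conidia, above mock on every array but not called (0.37 ± 0.20). Rpl22 was 11.87, 11.97 and 11.75 after mock and 12.44, 12.55 and 12.26 after e7 conidia (0.55 ± 0.23, adjusted p = 0.602). The 3'/5' ratio ran the other way here, 0.93 to 1.18 after e7 conidia against 1.41 to 2.61 after mock, and its part was not tested. The KO minus WT difference of the 4 h response was called in 0 members by limma (0.19% of all probe sets called). At an unadjusted p under 0.05, 2 members were below and 9 above 0, against 7.04% and 10.1% of all probe sets. Without array 4 of WT 4 h e7 it was called in 9, and the share of all probe sets called was not counted there.

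Rpl10a, Rpl35, Rpl7, Rplp0 and Rps26 were called lower in 2 of the 4 e7 comparisons, WT 4 h and KO 2 h. They were named after their values were seen. These comparisons share no array, but each probe set's spread came from the same fit over all groups. The calls are therefore not independent. The share of all probe sets called in both, or in 1 of the 4, was not counted, so these overlap counts have no background. The KO call was kept under 5 of 14 alternatives for Rpl10a, Rpl35 and Rpl7, 6 for Rplp0 and 14 for Rps26. Quantile normalization removed it for all but Rps26. In WT at 4 h each of these calls was lost without e7 arrays 2 and 3 together. Rpl10a, a protein at the exit of the spent transfer RNA, was 13.13, 13.15 and 13.17 after KO 2 h mock and 12.47, 12.63 and 12.67 after e7 conidia (-0.56 ± 0.17, adjusted p = 0.0312). In WT at 4 h it was 13.26, 13.49, 13.22 and 12.83 after mock and 12.48, 12.44, 12.47 and 13.03 after e7 conidia (-0.59 ± 0.14, adjusted p = 0.00416). Rpl35 was 13.47, 13.54 and 13.37 after KO 2 h mock and 12.78, 12.67 and 12.77 after e7 conidia. Rpl7 differed by -0.38 and -0.35 in these comparisons and its relative Rpl7l1 was not called in either. The other probe set of Rpl7l1, of nearly the same brightness (mean log2 9.76 against 9.82), was called in WT at 4 h (-0.91 ± 0.22, adjusted p = 0.00378). A further 24 members were called in 1 e7 comparison and 19 in none. The 19 include Rps3, which also serves in DNA repair, Rps6, the substrate of the S6 kinases, and Rpl13a. Another probe set of Rpl13a, with a mean log2 of 11.84, was called lower in WT at 2 h (-0.91 ± 0.22, adjusted p = 0.0277). A further probe set, with a mean log2 of 11.49, was called lower in KO at 2 h (-0.35 ± 0.11, adjusted p = 0.0462).

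**Figure D3:**
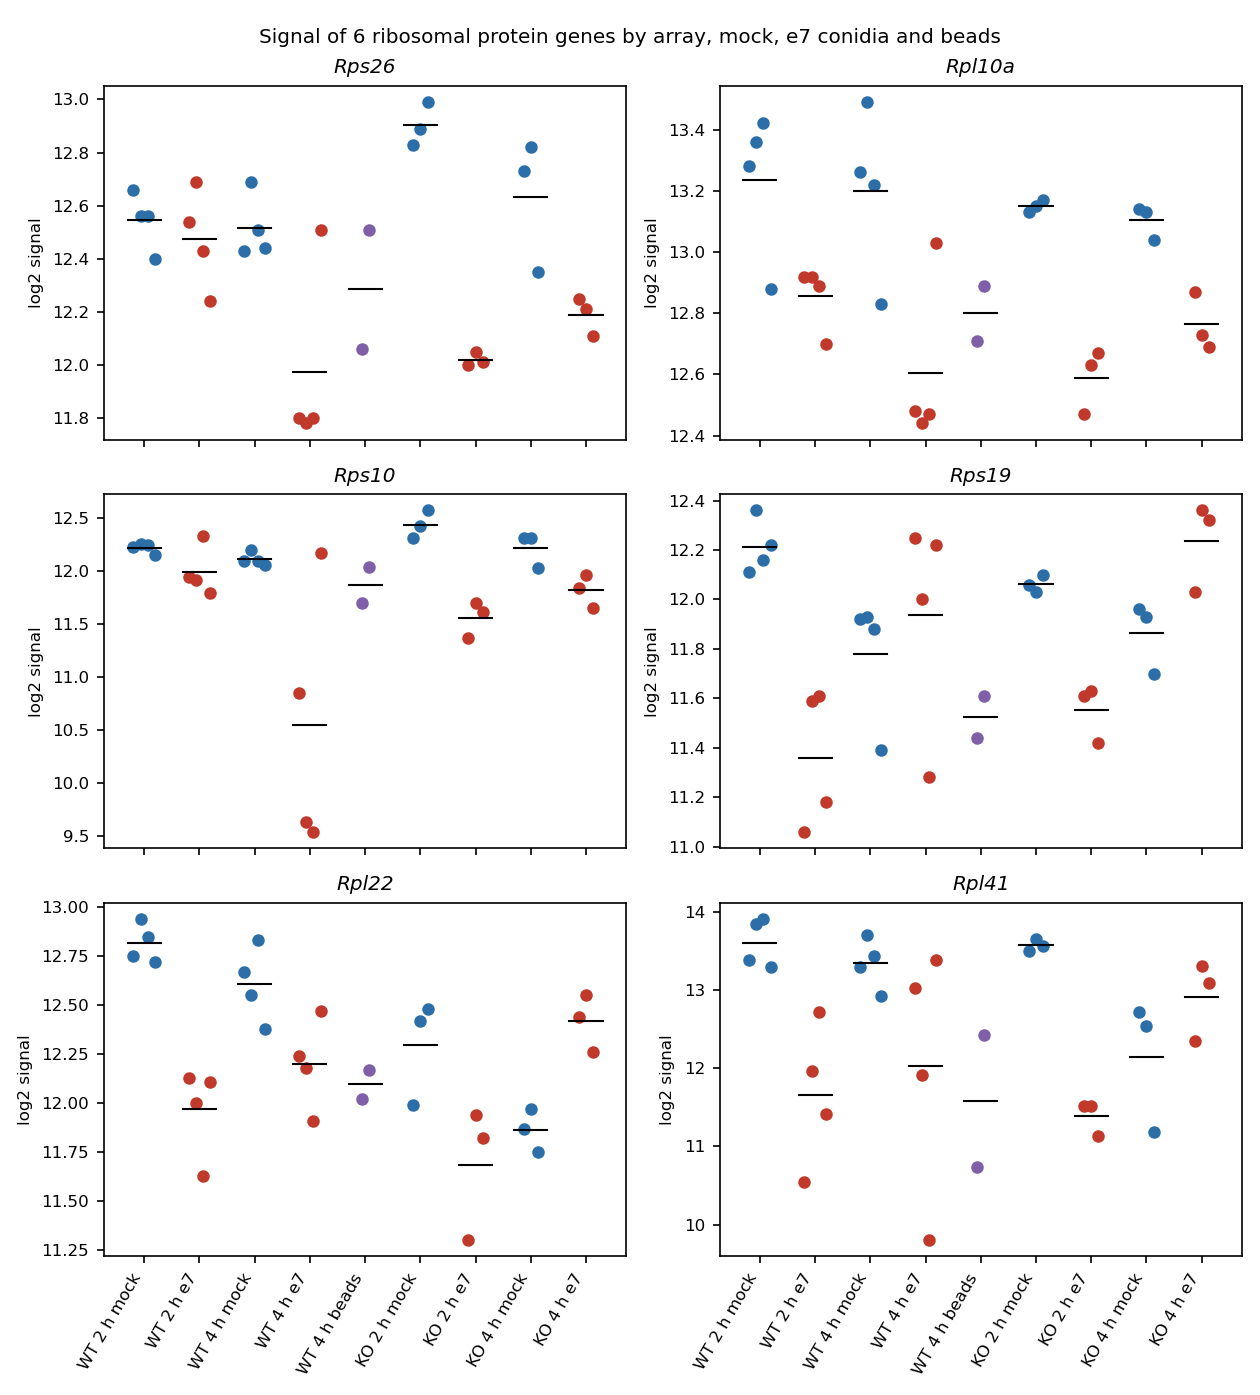
Log2 signal of 6 members by array, with mock in blue, e7 conidia in red, beads in purple and a bar at each group mean. Rps26 and Rpl10a of KO 2 h e7 lie below every mock array, Rps10 of WT 4 h e7 spans 9.54 to 12.17, and Rps19 of KO 4 h e7 (12.03 to 12.36) lies above its mock arrays.

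At the lower dose no member was called. In the 4 comparisons of e6 conidia with mock limma called 0 members, with 2 below 0 at an unadjusted p under 0.05 in WT at 2 h, against 2.36% of all probe sets, and 0 elsewhere. The background of calls in either direction was 0% in WT at 2 h, 0.00884% in WT at 4 h, 0% in KO at 2 h and 0.0796% in KO at 4 h. Median member differences were -0.13 and -0.04 in WT and 0.01 and -0.04 in KO. Those of largest size were Rpl3l at -0.57 and -0.96 in WT, and Rpl37 at -0.73 and Rps27 at -0.87 in KO.

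Mock instillation itself was compared with untreated mice. At 2 h in WT limma called 0 members (0.00442% of all probe sets called), with a median difference of 0.24 and 45 members above 0. At an unadjusted p under 0.05, 19 members were above 0, against 5.26% of all probe sets. The 3'/5' ratio was 0.93 to 1.47 after mock and 1.65 to 3.92 in untreated mice, and its part was not tested. At 4 h in WT the count was 0 (0 at an unadjusted p under 0.05; 0.0133% called), and the median difference 0.12. In KO at 2 h it was 0 (0.00442% called), with 1 below and 2 above 0 unadjusted, against 3.83% and 3.9% of all probe sets. In KO at 4 h 1 member was called, Rpl39, with 1.1% of all probe sets called higher. Rpl39, a small protein of the exit tunnel, was 7.61, 7.54 and 7.28 in untreated KO mice and 8.64, 7.92 and 8.82 after mock (0.98 ± 0.24, adjusted p = 0.0305). It was not called after quantile normalization, and not without untreated array 1, 2 or 3 or mock array 1 or 3.

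Beads against mock in WT at 4 h gave 0 calls by limma (1.14% of all probe sets called). At an unadjusted p under 0.05, 20 members were below and 2 above 0, against 6.55% and 10.9% of all probe sets. The median member difference was -0.31 and 41 members were below 0. In 21 members both bead arrays lay below all mock arrays, against 10.9% of all probe sets. The largest was Rpl41, at 10.74 and 12.42 after beads and 13.3, 13.71, 13.44 and 12.92 after mock (-1.76 ± 0.66, adjusted p = 0.154). The 3'/5' ratio of the bead arrays was 4.11 and 5.32 against 1.19 to 2.34 after mock, and its part was not tested. Without mock array 4 the count was 3. Beads and e7 conidia were compared with the same mock arrays. Set directly against beads, e7 conidia lowered 1 member, Rps10 (-1.32 ± 0.37, adjusted p = 0.0399), where 2.22% of all probe sets were called lower. Over all probe sets 503 were lower and 309 higher here, and 306 lower and 439 higher after quantile normalization. Rps10 was 11.7 and 12.04 after beads. The count was 0 without either bead array or e7 array 2 or 3, and 7 without e7 array 4.

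Over the 7 shared conditions, KO differed from WT in 6 members, 3 higher (Rpl39l, Rpl39, Rps9) and 3 lower (Rpl12, Rpl22, Rpl38). The background was 33.4% of all probe sets called in either direction, 11.6% lower and 21.9% higher. These were 2617 lower and 4945 higher calls on the deposited scale, and 3721 lower and 2847 higher after quantile normalization, which moved the median of all probe sets from 0.11 to -0.03. All 6 members kept their direction and their call. The members' share, 6 of 48, was below this background. Rpl39l, the testis-enriched paralog of Rpl39, lay between 7.23 and 8.9 with a median of 8.05 in 21 KO arrays, and between 5.81 and 8.34 with a median of 7.27 in 28 WT arrays. Its KO mean was higher in 7 of 7 conditions, by 0.52 to 1.18, and the arrays did not overlap in 2 of them (0.86 ± 0.16, adjusted p = 8.27e-05). Rpl12, a large-subunit protein of the stalk base, had KO values of 6.42 to 7.63 and WT values of 7.05 to 8.01, with a lower KO mean in 7 of 7 conditions (-0.44 ± 0.07). Rpl39l, Rpl12 and Rpl39 were called under all 57 alternatives tried for this comparison, of which 49 left out 1 array. Each was read from 1 member probe set, with a mean log2 of 7.6, 7.44 and 7.81. These were dim for the family, whose median was 12.71. Averaging the probe sets of a gene, 1 of the alternatives, could not change their values. For Rpl39 the KO mean was higher in only 4 of 7 conditions, with a largest difference of 0.92. Rpl22 differed by -0.27, with a lower KO mean in 4 of 7 conditions, and Rpl38 by -0.19, lower in 6 of 7. Rps9 differed by 0.20, higher in 7 of 7. With the mean of their probe sets Rpl22 (-0.10) and Rps9 (0.00) were not called. Markers of several cell types were called in the same comparison, 4 higher and 1 lower of 7 for T and NK cells, with Cd4 at 2.22, Cd8a at 1.39 and Nkg7 at 1.35. S100a8 was called higher (1.96) among 8 neutrophil markers, and Flt3 (0.97) and Cd209a among 4 monocyte and dendritic cell markers. Among 10 alveolar macrophage markers Fabp4 (1.28), Itgax and Car4 were called higher and Mrc1 lower (-0.1). Epcam (-0.76) and Sftpb were called lower among 7 lung epithelium markers. Their part in the result was not tested. In untreated mice alone the genotypes differed in 0 members by limma (0 at an unadjusted p under 0.05; 1.99% of all probe sets called), and Rpl39l read 0.78 ± 0.43.

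**Figure D4:**
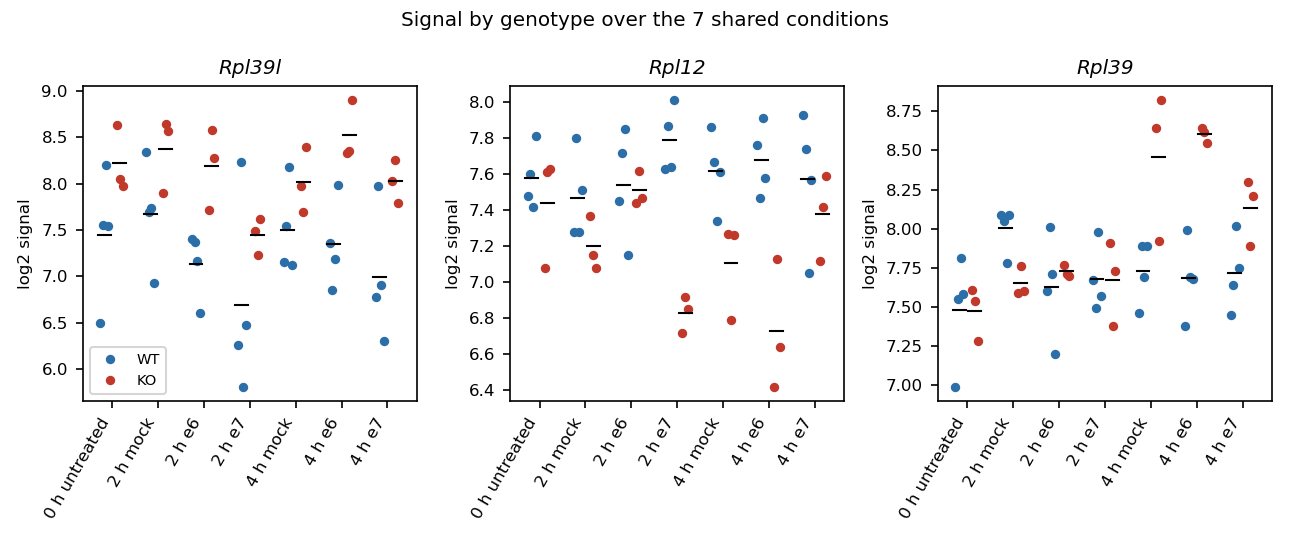
Log2 signal of Rpl39l, Rpl12 and Rpl39 by array over the 7 conditions both genotypes had, WT in blue, KO in red, bars at group means. KO means lie above WT in all 7 conditions for Rpl39l and below in all 7 for Rpl12, and the higher KO values of Rpl39 lie at 4 h.

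Several members are paralogs with restricted roles. Rps27l, a p53-induced relative of Rps27, was 10.64, 10.93, 11.02 and 10.6 after WT 4 h mock and 9.73, 9.56, 10 and 10.75 after e7 conidia (-0.79 ± 0.19, adjusted p = 0.00355). Rps27 read 0.57 ± 0.38 in the same comparison and was not called. Its 1 member probe set was dim for the family, with a mean log2 of 6.45. Of the 6 measured paralogs, each read from its brightest probe set, only Rps4l and Rps27l were called in any e7 comparison against mock, both in WT at 4 h. Of 11 measured genes mutated in Diamond-Blackfan anaemia, an inherited failure of red cell production, 1, 5, 4 and 0 were called lower in WT 2 h, WT 4 h, KO 2 h and KO 4 h. These stand beside 5, 16, 13 and 0 of all 48 members, and the share of all probe sets called lower was 0.769%, 9.68%, 2.54% and 0.00442%. Rps10, Rpl27 and Rpl11 were the largest of the 5.

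The result for a gene depended on which probe set was read. In 23 genes with more than 1 member probe set, the second could give another size or call. Rps7 read -0.31 in its brighter and -1.41 (adjusted p = 0.0477) in its second probe set at 2 h in WT. Rps9 read -0.36 and -1.25 (adjusted p = 0.034), and Rpl37a -0.19 and -1.36 (adjusted p = 0.0522). In others the second probe set was higher, in Rpl22 by 1.08, in Rpl41 by 1.01 and in Rpl27 by 0.68. Over the 18 genes with a second probe set of mean log2 of at least 9 it was lower in 10, with a median of -0.11 for second minus first. Among these 18 genes, calls at 2 h in WT were 1 with the first and 4 with the second, with none in common. Member probe sets with a mean log2 of 10 to 12 had median differences of -0.81, -0.73 and -0.69 in WT 2 h, WT 4 h and KO 2 h e7. Those of 13 and above had -0.33, -0.14 and -0.36. Other probe sets of 10 to 12 had medians of 0.05, -0.07 and 0.01, and those of 13 and above -0.22, 0 and -0.16. At 2 h the other bright probe sets were below 0 as well, by less than the members. The 102 probe sets with several symbols had 4, 31, 22 and 0 called lower in WT 2 h, WT 4 h, KO 2 h and KO 4 h, with medians of -0.36, -0.31, -0.29 and -0.20. The shares were 3.92%, 30.4%, 21.6% and 0%, to be set beside the 0.769%, 9.68%, 2.54% and 0.00442% of all probe sets given above. In addition 1 was called higher in WT 4 h and 4 in KO 2 h.

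**Figure D5:**
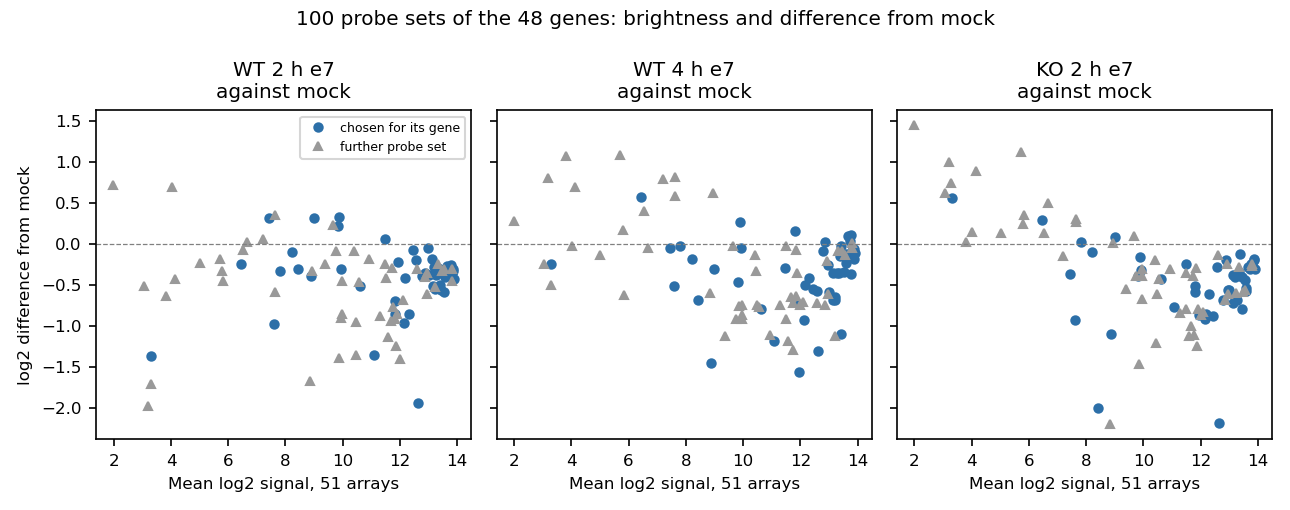
Log2 difference from mock (vertical) against mean log2 signal over 51 arrays (horizontal) for the 100 member probe sets in WT 2 h, WT 4 h and KO 2 h e7, blue circles for the probe set that stands for its gene and grey triangles for the others. Probe sets between 10 and 12 reach lower values than those of 13 and above.

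The rest of the translation machinery was counted from lists written with earlier results of these data known. Mitochondrial ribosomal proteins, which build the separate ribosome of mitochondria, had 45 of 74 measured genes called lower and 2 higher in WT at 4 h with e7 conidia, with a median of -0.60. Mrps34 (-1.35), Mrps11 (-1.31) and Mrps16 (-1.27) led. They had 8 lower and 2 higher in KO at 2 h, 3 lower in WT at 2 h and 0 in KO at 4 h. Of all 22626 probe sets 2.54% were lower and 1382 higher in KO at 2 h. In WT at 2 h 0.769% were lower, and in KO at 4 h 0.00442% were called. Of 24 initiation factors 7 rose and 7 fell in WT at 4 h: Eif4b, an activator of the messenger helicase, rose by 1.49 and Eif4a2 by 0.98, while the eIF3 subunits Eif3d and Eif3l fell by 1.22 and 1.03. Of 43 biogenesis genes 4 rose and 6 fell there. Gtpbp4, a GTPase of large-subunit assembly, rose by 1.17, while Myc, a transcriptional driver of ribosome production, fell by 1.19 and Mybbp1a by 1.08. Of 6 initiation repressors 3 fell, Eif2ak4 by 1.15, Eif4ebp1 by 1.13 and Eif2ak2 by 0.97. Of 18 transfer RNA ligases 2 rose and 5 fell. Eef1d, of the elongation factor complex, fell by 0.61 in WT at 4 h and by 0.90 in KO at 2 h. The background in WT at 4 h was 9.68% lower and 5.84% higher. Outside the cytosolic family 19.8% were lower at a mean log2 of 8 to 10 and 19.3% at 10 to 12. The list counts were not recomputed without e7 arrays 2 and 3, without which no cytosolic member was called.

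The genes outside the family whose 15 group means followed the median member profile most closely, among 2265 candidates, were Ndufa8 (Pearson r = 0.97), Atp5j2 (0.96) and Serf2 (0.96). After quantile normalization these were 0.88, 0.90 and 0.91. The points share arrays and scaling. Within the family, r with the median profile ranged from -0.21 for Rps27 to 0.97 for Rpl8.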

How the data were processed

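The deposited values were linear signal intensity, 1 per probe set and array, as the authors made them. GCOS and RMA are named in the submitters' processing notes, without version or role. Every array's mean after trimming 2% at each end was 500, and the distributions differed between arrays. Per the labels' protocols, 100 ng of total RNA was amplified and labelled with biotin. Precision is limited by the number of arrays.

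Log2 of the intensity was taken with no pseudocount or filter. After 64 controls were left out, 22626 probe sets entered a linear model (R 4.3.3, limma 3.58.1, empirical Bayes) with 1 mean per group over all 51 arrays and 18 contrasts. P-values are two-sided and Benjamini-Hochberg adjusted over all probe sets of a comparison, with a threshold of 0.05. An error after ± is limma's standard error, pooled over groups, which understates groups that vary more. Fits were tested on simulated data. The members, lists and naming rule were chosen with earlier results of these data known. Named genes are called members (at most the 5 largest falls and rises where over 10 were called), paralogs, members with extra roles, the most and least variable, those whose probe sets disagree, the 3 most alike genes, and up to 3 called genes per list. Alternatives were quantile normalization, a filter at a signal of 100, a floor of 50, array weights, only the compared arrays, a replicate block, the 3'/5' covariate, the mean of all probe sets per gene, and each array left out. The second probe set and 2 exclusions at WT 4 h were chosen after seeing the data.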

Additional observations from a re-analysis of the deposited data

Results flagged for a closer look

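In groups of 4 arrays, 1 array stood apart from the other 3 by Dixon's test in 9 of 84 checks. These were 11 members and the family median, each in 7 WT groups. Chance gives about 1 in 20 for a single check. Checks within a group share its arrays and are not independent, so 9 of 84 cannot be set against that rate. After 2 h of e7 conidia in WT, array 4 had a median member deviation of -0.28 (others -0.1 to -0.07) and an Rpl10a signal of 12.7 (others 12.89 to 12.92). After 2 h mock, array 4 had Rps14 at 13.48 (13.87 to 13.93). After 4 h mock, array 4 had Rps19 at 11.39 (11.88 to 11.93). After 4 h of e6 conidia, array 4 had Rplp0 at 12.95 (13.44 to 13.46) and Rps14 at 13.2 (13.71 to 13.79), and array 3 had Rps10 at 12.94 (11.89 to 12.04). After 4 h of e7 conidia, array 4 had Rpl10a at 13.03 (12.44 to 12.48) and Rps26 at 12.51 (11.78 to 11.8). The array numbered 4 accounts for 8 of the 9. The array 4 of WT 4 h e6 had a 3'/5' log2 ratio of 4.75 (others 1.29 to 1.81), and the part of this ratio was not tested.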

How the results depend on the processing

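Counts of members called were recomputed under each alternative. Apart from quantile normalization, the share of all probe sets called was not counted under them, so these counts have no background. In WT 2 h e7 against mock the 5 became 3 with quantile normalization, 14 with the filter on dim probe sets, 10 with the floor, 24 with array weights, 0 with only the compared arrays or with the 3'/5' covariate, and 0 to 12 with 1 array left out. In WT 4 h e7 the 16 became 0 with only the compared arrays, 0 without e7 arrays 2 and 3, 5 without the 3 arrays with the highest neutrophil markers, and 5 to 22 with 1 array left out. In KO 2 h e7 the 13 became 8 with quantile normalization, 26 with weights, 6 with only the compared arrays and 4 to 8 with 1 array left out. Mock against untreated gave 3 (WT 2 h) and 1 (KO 2 h) with weights. KO 4 h gave 0 with quantile normalization or only the compared arrays, 2 with weights or the covariate, and 0 to 1 with 1 array left out. Beads against mock gave 3 with the filter, 5 with the floor, 1 with the mean of probe sets, 1 without the 3 neutrophil-marker arrays, and 0 to 3 with 1 array left out. E7 conidia against beads gave 2 with the filter or floor, 0 with only the compared arrays or the mean of probe sets, 4 with the covariate, and 0 to 7 with 1 array left out. The KO minus WT difference gave 1 with the floor or covariate and 3 with weights at 2 h, and 2 with the filter, 4 with weights and 0 to 9 with 1 array left out at 4 h. KO against WT over 7 conditions stayed at 5 to 8. Over all probe sets same-numbered arrays of different groups showed little common deviation (median r = 0.01 in both genotypes), and the replicate number was not used as a pairing. In the family median array 4 was the lowest of its group in 4 of the 7 WT groups of 4 and the highest in 2. A fit with the replicate block gave 8 in WT 2 h e7, and 2 each in beads against mock and e7 against beads. Rpsa in KO 2 h e7 changed sign, to 0.09, with the mean of its probe sets, and the cause was not tested, as for the other changes. Counts near the threshold are limited by 2 to 4 arrays per group, and signals of dim probe sets by background.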
